A study of Homo sapiens with 6 samples.

Results

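The Hedgehog ligands SHH, IHH and DHH, the receptors and surface proteins PTCH1, SMO and HHIP, and the transcription factors GLI1, GLI2 and GLI3 were examined in SCC90 cells after knockdown of ΔNp63. These 9 genes, core members of the pathway picked with earlier results of these data known, were found by symbol, and all 9 had a row among the 40488 genes of the table. SCC90 is an established HPV-positive squamous carcinoma line of the oropharynx. Cells transfected with 10 nM of 1 siRNA against ΔNp63 (siDNp63, 3 libraries) were compared with cells given a scrambled siRNA (siCTRL, 3 libraries), and RNA was taken 72 h after transfection in both groups. ΔNp63 is the isoform of TP63 that lacks the amino-terminal transactivation domain and predominates in squamous epithelium. The data therefore describe 1 line and 1 siRNA, and since nothing in the labels says that the 3 libraries of a group came from separate cultures, the p-values reflect variation among these libraries alone, part or all of it possibly technical.

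In the absence of ligand, the receptor PTCH1 holds the transmembrane protein SMO inactive, and GLI2 and above all GLI3 are processed into repressors at the primary cilium. When SHH, IHH or DHH binds PTCH1, SMO becomes active and full-length GLI factors turn on their targets, which include PTCH1, GLI1 and HHIP themselves. SHH and its receptors pattern the oral and craniofacial epithelium, and mutations of PTCH1 or SMO drive basal cell carcinoma, a tumor of the epidermis.

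The targeted gene was examined first. TP63 had 15520, 14470 and 15410 normalized counts in the 3 siDNp63 libraries, against 42320, 44200 and 43700 in the 3 siCTRL libraries, where normalized counts are estimated read counts scaled between libraries by TMM. The log2 fold change was −1.52 (SE 0.04, edgeR quasi-likelihood test, adjusted p = 7.59e-07). These counts cover all TP63 isoforms, since the table sums transcripts per gene. The siRNA strand listed as antisense is shown because it is the listed strand found in TP63. All of its bases, in capitals, are found as written in 8 annotated transcripts of TP63 (chromosome 3) and in 0 of 82 annotated transcripts of the 9 Hedgehog genes, so its orientation is that of the transcript and goes against its listing as antisense. The strand listed as sense was found in no annotated transcript in either orientation. The listed strands are 19 and 21 bases long and are not complementary to each other, so the siRNA duplex used cannot be read from them.
siRNA strand: ACCTGGAAAACAATGCCCAGA

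Promoter sequences are shown for the 2 members that changed, PTCH1 and SMO. RefSeq (GRCh38.p14) gave 12 windows of 300 bases, from 250 bases before to 50 after a transcript start, for 7 of the 9 genes, the exceptions being GLI1 and GLI3. The GLI motif GACCACCCA, searched on both strands, was found in 1 of the 12 windows, that of an internal start of PTCH1, and in 83 of 35116 windows of all genes (0.236%). PTCH1 had several windows, and the others, that of its most upstream start among them, held no match. The 250 bases before the start with the match are chr9:95509267-95509516 (minus strand), where capitals mark the match. It begins 172 bases before the start and reads on the other strand. The 250 bases before the start of SMO are chr7:129188383-129188632 (plus strand) and hold no match. The SMO window was 72.0% GC with 29 CpG dinucleotides, against a median of 58.7% GC and 14 CpG over all windows. A p53-family decamer was present in 2 member windows, 1 each of SHH and GLI2, and in 6.63% of all windows. These matches describe letters in the windows and are not evidence of binding.
PTCH1 upstream: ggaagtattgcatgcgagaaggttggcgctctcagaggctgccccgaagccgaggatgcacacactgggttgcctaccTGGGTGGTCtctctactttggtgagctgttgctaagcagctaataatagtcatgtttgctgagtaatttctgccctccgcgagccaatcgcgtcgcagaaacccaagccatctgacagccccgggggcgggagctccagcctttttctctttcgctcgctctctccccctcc
SMO upstream: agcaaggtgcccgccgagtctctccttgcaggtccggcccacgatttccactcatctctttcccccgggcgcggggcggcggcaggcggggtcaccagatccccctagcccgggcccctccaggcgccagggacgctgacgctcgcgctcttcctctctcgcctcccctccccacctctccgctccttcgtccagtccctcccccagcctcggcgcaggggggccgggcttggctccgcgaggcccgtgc

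Library totals lay between 35716277 and 52598831 estimated counts in siDNp63 cells and between 38110314 and 48741346 in siCTRL cells. On a principal component analysis siDNp63 replicate 1 stood apart on the second component, at −39.1 against 25.6 and 24.8 for the other siDNp63 libraries, so values without it are given below. Of 7 squamous epithelial markers, 6 were at 1 TPM (a transcript level scaled for length and library total) or more in every library. The exception was KRT14, a basal keratin, at 1.41 to 1.59 TPM in siDNp63 cells and 0.374 to 0.780 TPM in siCTRL cells. The summed level of 6 fibroblast markers was 4.62 to 8.11 TPM in siDNp63 cells and 7.47 to 9.54 TPM in siCTRL cells, mostly from COL1A1, and PDGFRB was listed at 0 throughout. The sum of 5 leukocyte markers was 3.88 to 4.53 TPM in siDNp63 cells and 6.18 to 7.15 TPM in siCTRL cells, with PTPRC at or below 0.372 TPM and CD14 at 0.769 to 1.96 TPM in siDNp63 cells and 3.47 to 3.84 TPM in siCTRL cells. The sum of 4 endothelial markers was 11.1 to 13.5 TPM in siDNp63 cells and 2.49 to 3.00 TPM in siCTRL cells, mostly from KDR and PECAM1, while CDH5 stayed at or below 0.112 TPM. The part of these differences in the results below was not tested.

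SMO and PTCH1 were lower in siDNp63 cells, and none of the 7 members that could be tested was called higher. Of the 9, 7 passed the filter on low counts, and 2 of these 7 passed an adjusted p of 0.05 in edgeR, both lower. Over all 17257 genes tested, 15.2% were called lower and 18.4% higher, 33.6% in either direction. No tested member was higher at an unadjusted p under 0.05 in edgeR either, and 0 of these 7 were called higher by DESeq2 or limma-voom. DESeq2 gave no adjusted p for GLI1, so it could not call that gene. The 2 genes that did not pass the filter were IHH and DHH. GLI1 passed it through its 3 siCTRL libraries only, with 0 of its siDNp63 libraries at the minimum. SMO was the only member also past an absolute log2 fold change of 1, where 1.71% of all genes tested were called lower. In these bulk samples fewer cells expressing a gene and less RNA per cell cannot be told apart.

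**Figure D1:**
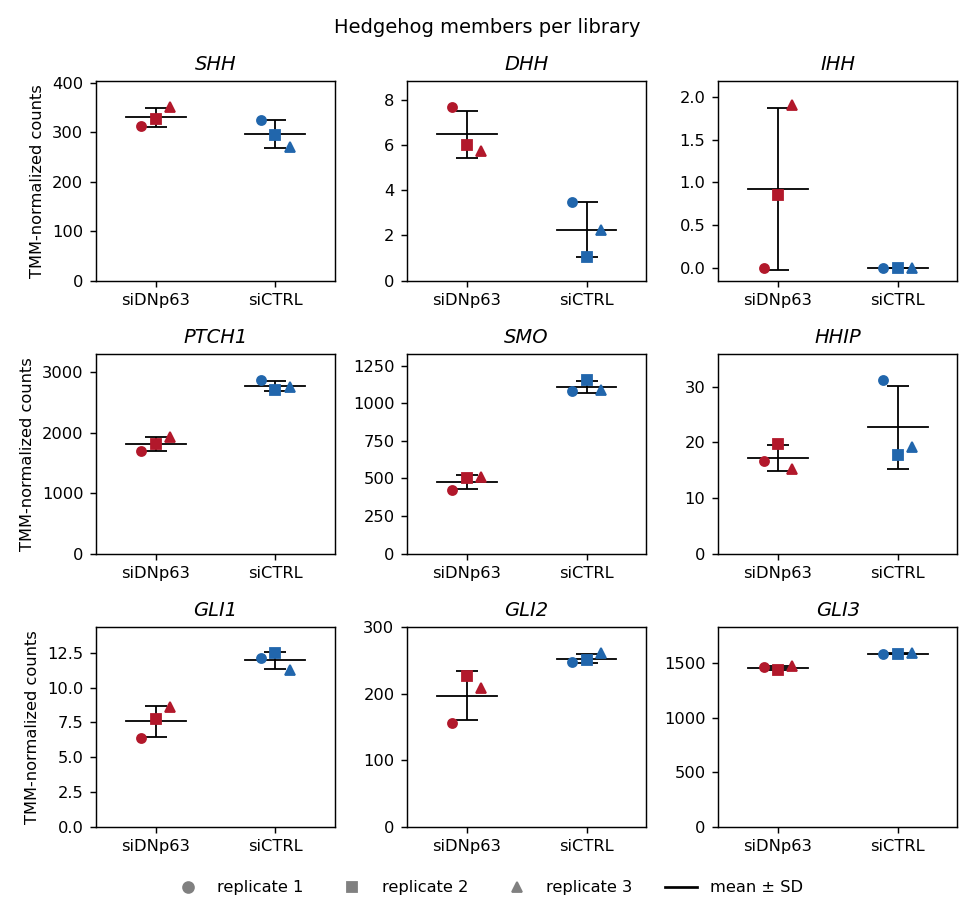
Each panel plots TMM-normalized counts of 1 Hedgehog gene (y axis, counts, each panel on its own scale) in the siDNp63 libraries (left, red) and the siCTRL libraries (right, blue), with symbols for the replicates and black lines for mean ± SD (n = 3 each). All 3 siDNp63 libraries lay below all 3 siCTRL libraries for PTCH1, SMO, GLI2 and GLI3, as for 24.7% of all genes tested. Of these SMO had the widest gap relative to its level, at 423.6 to 508.3 counts in siDNp63 cells and 1081 to 1154 counts in siCTRL cells. GLI1 lay lower too, but it passed the filter through its siCTRL libraries only, so its position is not read.

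SHH was the only ligand at a sizeable level. It had 313.5, 326.1 and 351.0 normalized counts in siDNp63 libraries and 325.4, 295.4 and 269.2 in siCTRL libraries. The ranges overlapped, and the log2 fold change was 0.15 (95% interval −0.08 to 0.39), an edgeR adjusted p of 0.293. The interval leaves room for a modest rise and for a small fall, so a difference was not resolved.

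DHH, the ligand of peripheral nerve sheath and testis, was at the edge of detection. It had 6, 7 and 6 counts (rounded) in siDNp63 libraries and 4, 1 and 2 counts in siCTRL libraries, so every siDNp63 library was higher. Over all genes tested, which leave out DHH, 24.7% were likewise higher in normalized counts without overlap, so such a position is common. Summed over libraries DHH had 19 counts in siDNp63 cells against 7 in siCTRL cells. The ratio was 2.72 after scaling, with an exact counting interval of 1.09 to 7.65. That interval covers counting error only, and the edgeR fit without a filter gave an adjusted p of 0.187 (log2 fold change 1.43).

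IHH, the ligand of the growth plate, had 0, 1 and 2 counts in siDNp63 libraries and 0 counts in each siCTRL library. Every library was below 3 counts, the limit that a count of 0 allows, so no fold change is given for IHH.

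SMO, the transducer that signals once PTCH1 releases it, had the largest fitted change of the 7 tested members. It had 423.6, 501.6 and 508.3 normalized counts in siDNp63 libraries, against 1081, 1154 and 1086 in siCTRL libraries. The highest siDNp63 library was below the lowest siCTRL library by a wide margin. The means were 477.8 ± 47.1 in siDNp63 cells and 1107 ± 41.0 in siCTRL cells (SD, n = 3 each). The fitted log2 fold change was −1.21 (SE 0.08, 95% interval −1.40 to −1.01, edgeR adjusted p = 3.13e-05), or 2.31-fold lower. Its level per length was 7.84, 8.18 and 9.05 TPM in siDNp63 libraries and 18.9, 20.3 and 19.0 TPM in siCTRL libraries, with the same order. SMO had the 253rd lowest log2 fold change of 17257 genes, so 1.47% of genes were as low or lower. Without siDNp63 replicate 1, its lowest library, the log2 fold change was −1.13 (edgeR adjusted p = 1.29e-05).

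PTCH1, which is both the receptor that restrains SMO and a transcriptional target of the pathway, had 1696, 1818 and 1931 normalized counts in siDNp63 libraries and 2870, 2709 and 2752 in siCTRL libraries. The groups did not overlap. The means were 1815 ± 118 in siDNp63 cells and 2777 ± 83.3 in siCTRL cells (SD, n = 3 each), and the log2 fold change was −0.61 (SE 0.06, 95% interval −0.74 to −0.48, edgeR adjusted p = 0.000124), or 1.53-fold lower. By TPM the siDNp63 libraries read 20.1, 22.0 and 23.6 and the siCTRL libraries 34.1, 26.1 and 34.2. The low value of siCTRL replicate 2 on the TPM scale came with more counts per TPM, taken relative to the median gene of the same library, at 1.95 against 1.46 to 1.60 in the other libraries. This relative value tracks the transcript length behind the estimate. With a gene length offset, edgeR gave −0.46 (adjusted p = 0.0240) for PTCH1.

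The balance of receptor and transducer transcripts differed between the groups. The ratio of PTCH1 to SMO in TPM was 2.56, 2.70 and 2.61 in siDNp63 libraries and 1.80, 1.29 and 1.80 in siCTRL libraries, without overlap. In normalized counts it was 4.00, 3.62 and 3.80 in siDNp63 libraries against 2.65, 2.35 and 2.53 in siCTRL libraries. The ratios were formed from the tested values above and carry no test of their own.

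HHIP, a membrane protein that binds and sequesters Hedgehog ligands, was low. It had 16.64, 19.69 and 15.26 normalized counts in siDNp63 libraries and 31.23, 17.68 and 19.15 in siCTRL libraries. The ranges overlapped, siCTRL replicate 1 stood highest, and the log2 fold change was −0.41 (95% interval −1.13 to 0.32, edgeR adjusted p = 0.363). Without siCTRL replicate 1 it was −0.10. Its direction turned with the unit, to 0.02 with limma on log2(TPM + 0.1) and 0.04 with a gene length offset in edgeR. Genes annotated on the opposite strand overlap exons of HHIP, PTCH1, SMO, DHH and GLI1, and since the quantification did not use strand, reads of such pairs cannot be told apart. Of these opposite-strand genes only ARHGAP9, at GLI1, had a row of counts. The share of the others, including those at SMO and PTCH1, could not be checked.

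**Figure D2:**
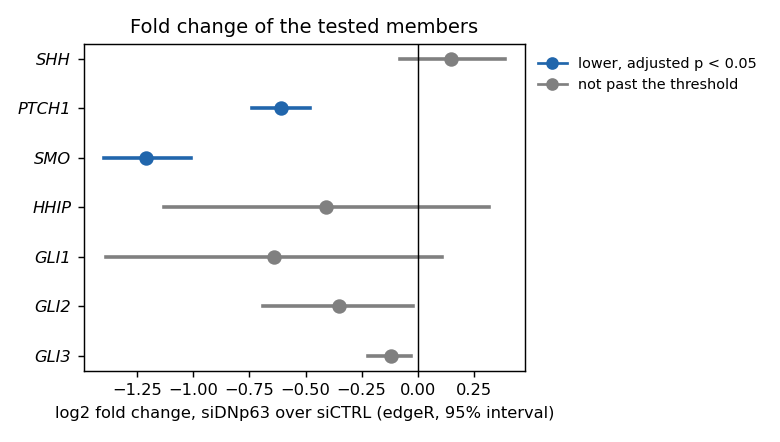
Points are log2 fold changes (siDNp63 over siCTRL, x axis) of the 7 tested genes from edgeR, and bars are 95% intervals over 3 libraries per group. SMO at −1.21 and PTCH1 at −0.61, in blue, passed an adjusted p of 0.05, and the grey genes did not.

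None of the 3 GLI factors passed the test. In normalized counts GLI2 and GLI3 lay lower in every siDNp63 library. GLI1 did too, but it passed the filter through its siCTRL libraries only, so its position is not counted. In TPM the groups overlapped for all 3 GLI factors, with siDNp63 replicate 3 at 0.558 TPM for GLI1, 1.5 TPM for GLI2 and 8.31 TPM for GLI3. Over all genes tested, 24.7% were likewise lower in normalized counts without overlap, so the position of the libraries alone is common in this comparison. GLI3, mainly a repressor in cells without ligand, had 1462, 1436 and 1476 normalized counts in siDNp63 libraries, against 1586, 1585 and 1593 in siCTRL libraries. The difference was small and even, at −0.12 on the log2 scale (SE 0.04, 95% interval −0.22 to −0.03, edgeR adjusted p = 0.0538). Without siDNp63 replicate 1 it was also −0.12, with an edgeR adjusted p of 0.0343, and 3 of 11 other settings of filter, scaling, test or unit, 1 a filter and the others scalings, also brought it past the threshold.

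GLI2, the main activator in many tissues, had 156.1, 226.8 and 208.9 normalized counts in siDNp63 libraries and 247.3, 250.6 and 261.4 in siCTRL libraries. The lowest value was that of siDNp63 replicate 1. The log2 fold change of −0.35 (SE 0.14, 95% interval −0.69 to −0.02, edgeR adjusted p = 0.0992) became −0.21 without that library (edgeR adjusted p = 0.116), −0.15 with a gene length offset in edgeR, and −0.24 and −0.13 with limma on log2(TPM + 0.1) and log2(TPM + 1).

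GLI1, an activator that is itself induced by Hedgehog signaling and is often used as a readout of it, was among the least abundant genes tested, with a mean count level at the 0.991 percentile. It had 6.399, 7.704 and 8.583 normalized counts in siDNp63 libraries and 12.15, 12.48 and 11.27 in siCTRL libraries. The log2 fold change of −0.64 had a 95% interval of −1.39 to 0.11 (edgeR adjusted p = 0.179). Since GLI1 passed the filter through its siCTRL libraries only, a lower level in siDNp63 cells was part of its selection, and nothing is read from its direction. On other scales the value was −0.21 with a gene length offset in edgeR, and −0.18 and −0.02 with limma on log2(TPM + 0.1) and log2(TPM + 1). ARHGAP9, which overlaps GLI1 on the opposite strand, had at most 6.01 estimated counts in a siDNp63 library and 9.01 in a siCTRL library.

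**Figure D3:**
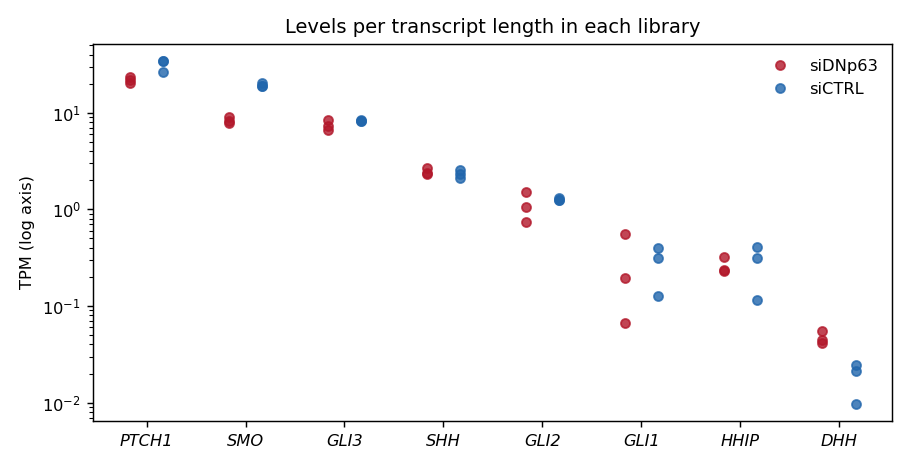
Points are the TPM values (y axis, log scale) of 8 Hedgehog genes in each siDNp63 library (red, left of each pair) and siCTRL library (blue, right). IHH is left out because it was listed at 0 in 4 of 6 libraries. PTCH1 stood highest in both groups, and GLI1 and HHIP spread widely and overlapped each other.

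Compared per transcript length, the 9 genes held the same order in both groups. In siDNp63 cells the mean levels were PTCH1 21.9 ± 1.75, SMO 8.36 ± 0.626, GLI3 7.40 ± 0.869 and SHH 2.45 ± 0.174 TPM (SD, n = 3), and the values of SMO and GLI3 overlapped. In siCTRL cells they were PTCH1 31.5 ± 4.62, SMO 19.4 ± 0.761, GLI3 8.28 ± 0.0728 and SHH 2.32 ± 0.236 TPM (SD, n = 3), with no overlap between these 4. GLI2 followed, at 1.10 ± 0.379 TPM in siDNp63 cells and 1.27 ± 0.0286 TPM in siCTRL cells. GLI1 and HHIP came next in both groups and overlapped each other, with mean levels between 0.264 and 0.281 TPM, and DHH and IHH were last. The counts per TPM, relative to each library's median gene, of GLI1 varied 6.47-fold and those of HHIP 3.81-fold across libraries, against a median of 1.12-fold over the genes tested.

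By a fixed measure of likeness, the genes whose 6 log2 values, taken relative to their siCTRL mean, lay closest to those of SMO were PTK7, GPR176 and TRANK1, of 13882 genes with a mean of at least 50 normalized counts. PTK7, a pseudokinase of planar cell polarity, had a log2 fold change of −1.16 at a distance of 0.147. GPR176, an orphan G protein-coupled receptor, had −1.16 at 0.151, and TRANK1 had −1.23 at 0.157. Fold changes near that of SMO follow from this choice of genes, so nothing is read from them.

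The wider pathway was described by 6 lists of other genes, of which 97 distinct genes were tested. Of these 97, 25 were higher and 26 lower in siDNp63 cells at an edgeR adjusted p of 0.05, with a median log2 fold change of −0.02, equal to the median of −0.02 over all genes tested. The calls were uneven between the lists, with 4 higher and 15 lower of 39 cilium genes, and 9 higher and 3 lower of 25 intracellular regulators. List medians ran from −0.19 to 0.21, so the pooled median covers lists of both signs. No difference between lists was tested. In edgeR without a filter on low counts 25 list genes were higher and 22 lower. With 1 library left out, 23 to 27 were higher and 20 to 31 lower. The counts of 25 and 26 of 97 are to be read against the 18.4% higher and 15.2% lower among all genes.

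**Figure D4:**
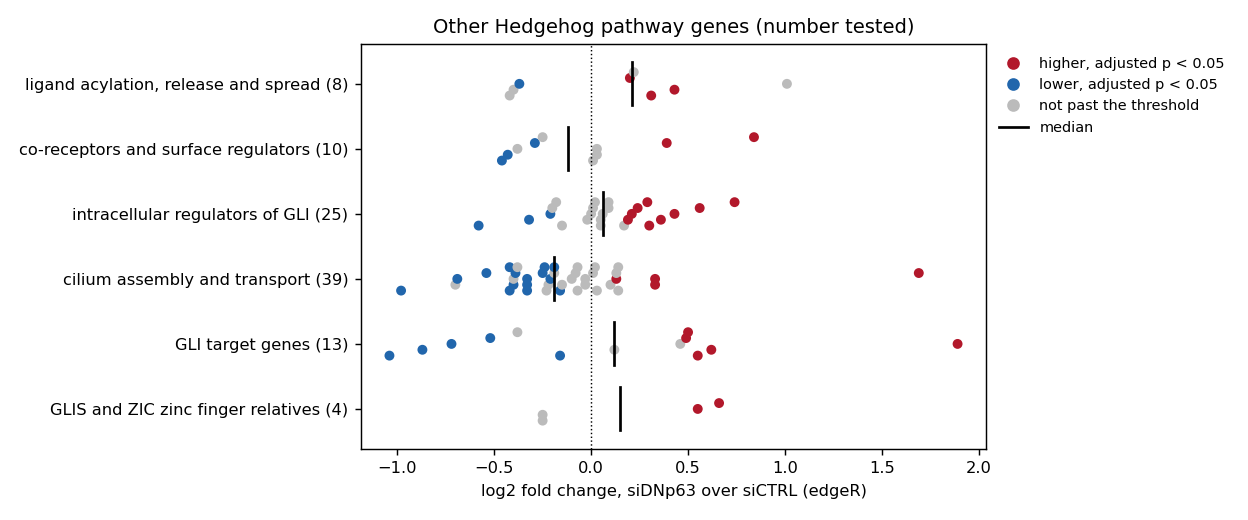
Each point is the log2 fold change (siDNp63 over siCTRL, x axis) of 1 gene of the 6 lists (rows, with the number tested), in red where higher and blue where lower at an edgeR adjusted p of 0.05, and black bars are list medians. KIFAP3 at 1.69 and SOX9 at 1.89 lie farthest to the right. JAG2 at −1.04 lies farthest to the left, a place it loses without siDNp63 replicate 1 (−0.84).

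Of 8 tested genes listed under ligand acylation, release and spread, whether they aid or limit it, 3 were higher and 1 lower (median 0.21). SCUBE3, a secreted protein that helps release ligand, was higher by 0.43 on the log2 scale and the glypican GPC3 by 0.20, while HHAT, the acyltransferase that palmitoylates the ligands, was lower (−0.37, edgeR adjusted p = 0.0195). The call on HHAT was lost when any of 4 single libraries was left out, siDNp63 replicate 2 or 3 or siCTRL replicate 1 or 2, and on the TPM scales, where SCUBE3 lost its call too, and with the gene length offset (−0.36, edgeR adjusted p = 0.0534). DISP1, the transporter that exports ligand, was called higher at 0.31 but reversed to −0.06 on the TPM scales.

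Of 10 tested co-receptors and surface regulators, 2 were higher and 3 lower (median −0.12). GAS1, a co-receptor that promotes ligand binding, had 504.2, 461.4 and 405.3 normalized counts in siDNp63 libraries and 275.9, 226.7 and 260.2 in siCTRL libraries (log2 fold change 0.84, edgeR adjusted p = 0.00106). MOSMO, a membrane protein that lowers SMO at the cell surface, was higher by 0.39 on the log2 scale. EVC, a ciliary partner of SMO, was lower at −0.46. The call on MOSMO was lost on both TPM scales and that on EVC on 1 of them. The co-receptors CDON (0.03, edgeR adjusted p = 0.733) and BOC (−0.25, edgeR adjusted p = 0.333), named after their values were seen, did not pass the test.

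Of 25 tested intracellular regulators of GLI, 9 were higher and 3 lower (median 0.06). GPR161, a ciliary receptor that raises cAMP and restrains the pathway, had 3260, 3111 and 3184 normalized counts in siDNp63 libraries and 4770, 4800 and 4725 in siCTRL libraries (log2 fold change −0.58, edgeR adjusted p = 1.63e-05). PRKACB, a catalytic subunit of protein kinase A, which phosphorylates GLI factors toward their repressor forms, was higher by 0.74 on the log2 scale. NUMB, an adaptor for GLI1 degradation, and CUL3, the scaffold of the ligase that degrades GLI factors, were higher by 0.56 and 0.43. SUFU, the GLI-binding inhibitor, named after its values were seen, had a log2 fold change of 0.01 (edgeR adjusted p = 0.964).

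Of 39 tested genes of cilium assembly and transport, 4 were higher and 15 lower, and the median was −0.19. The lower calls nearest the threshold, at edgeR adjusted p of 0.0418 to 0.0485, were lost without a filter on low counts (0.0533 to 0.0974). DYNC2H1, the heavy chain of the retrograde cilium motor, had means of 553.2 normalized counts in siDNp63 cells and 1089 in siCTRL cells (log2 fold change −0.98), and BBS4, a subunit of the BBSome, and IFT172, of the transport train, were lower at −0.69 and −0.54. KIFAP3, which links the anterograde motor kinesin-2 to its cargo and also serves outside the cilium, was the largest rise, with 5108 normalized counts in siDNp63 cells against 1586 in siCTRL cells (log2 fold change 1.69, edgeR adjusted p = 4.17e-07). KIF3A, a motor subunit of the same kinesin-2, was lower at −0.42, a call that was lost on the TPM scales and with a gene length offset.

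Of 13 tested GLI target genes from other systems, 5 were higher and 5 lower (median 0.12). SOX9, a transcription factor of progenitor cells, averaged 579.0 normalized counts in siDNp63 cells and 156.5 in siCTRL cells (log2 fold change 1.89, edgeR adjusted p = 4.54e-06), with FOXE1 and MYCN higher by 0.50 and 0.62. JAG2, a Notch ligand, averaged 1181 in siDNp63 cells and 2440 in siCTRL cells (−1.04, edgeR adjusted p = 0.00254). Its lowest library was siDNp63 replicate 1, without which JAG2 was at −0.84 (edgeR adjusted p = 3.18e-05) and no longer past 1. CCNE1 and BCL2 were lower at −0.87 and −0.52. Most of these genes answer to many pathways besides Hedgehog. Among zinc finger relatives of GLI, ZIC2 and ZIC5 were higher, at 0.66 and 0.55, of 4 tested. GLIS1 and GLIS3 had −0.25 each and did not pass the test, at edgeR adjusted p of 0.417 and 0.108. The call on ZIC2 was lost on the TPM scales and with a gene length offset.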

How the data were processed

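RNA of 6 SCC90 libraries was measured by sequencing of poly(A)-selected RNA. Per the labels and the submitters' processing notes, reads were separated with bcl2fastq 2.17.1.14 and quantified with kallisto 0.46.2 on hg38, with an annotation whose release no source here names. The deposited expected counts are the authors' transcript estimates summed per gene, without scaling between libraries, and the deposited TPM values are their length-scaled levels. Expected counts were rounded and filtered in edgeR 4.0.16 (filterByExpr, minimum count 10), scaled by TMM, and fitted with its quasi-likelihood test over 17257 genes with group as the only term and Benjamini-Hochberg adjustment. R 4.3.3, limma 3.58.1 and DESeq2 1.42.0 gave alternatives of filter, scaling, test, unit, gene length and replicates. Gene coordinates came from an hg38 annotation. The labels give the siRNA dose as 10 nM, and the methods another. Members and lists were chosen with earlier results of these data known, and the p53-family decamer search was added later. Named were the members, TP63, and from each list genes past a log2 fold change of 1 plus up to 4 with the smallest p; 1 gene this rule names is not reported here. The 95% intervals of fold changes come from the edgeR fit over libraries, while the exact interval of DHH and the floor of 3 counts cover counting error only.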

Additional observations from a re-analysis of the deposited data

How the results depend on the processing

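SMO kept its call in all 6 fits that left out 1 library (−1.25 to −1.13) and all 11 other alternatives (−1.29 to −1.13), and PTCH1 likewise (−0.66 to −0.57 and −0.70 to −0.46). With an unadjusted p under 0.005 and an absolute log2 fold change of at least 1, a reading of the threshold in the study's methods, 1 member was lower, SMO. GLI3 passed the threshold in edgeR with at least 10 counts in every library (−0.14, adjusted p = 0.0340), with library size only (−0.21, adjusted p = 0.00539, where the median of all genes was −0.11) and with upper-quartile scaling (−0.17, adjusted p = 0.0136, median −0.07), and it ranged over −0.13 to −0.11 with 1 library left out, where it was called only without siDNp63 replicate 1. Leaving out 1 library moved HHIP over −0.56 to −0.10 without a call, and SHH, GLI1 and GLI2 stayed uncalled in these fits too. GLI1 could not be tested with at least 10 counts in every library, and DESeq2 gave it no adjusted p. HHIP reversed to 0.02 with limma on log2(TPM + 0.1) and to 0.04 with the gene length offset, and DISP1 reversed to −0.06 with either TPM pseudocount and to −0.00 with the offset; the cause was not tested. Among the other named genes, 14 values lost their call on the TPM scales or with the length offset and 4 with 1 library left out, all 4 of HHAT.

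With limma on log2(TPM + 0.1) and log2(TPM + 1), 15 and 15 genes of the pathway lists were higher and 16 and 17 lower, and 15 were lower with the length offset. Over all genes, 1678 and 1668 were higher on the 2 TPM scales, against 3177 in the edgeR fit, and 4117 were lower with library size only, against 2626. Of all calls, 54.7% were higher in the edgeR fit, 36.1% with library size only, 44.4% with upper-quartile scaling, and 42.3% and 41.5% on the TPM scales. Libraries with the same replicate number did not deviate together (correlation of deviations −0.01, 0.02 and 0.03). Whether they were paired in the experiment cannot be told from this, and the labels do not say. A replicate block gave 0 members higher and 2 lower, 24 and 20 list genes, and 2777 and 2175 genes in all, and it changed no member's call. By normalized counts in place of TPM, GLI3 ranked 2 and SMO 3, and HHIP 6 and GLI1 7, in siCTRL cells. Depth limits DHH, IHH, GLI1 and HHIP, which had at most 36 counts in any library.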
